A study of Mus musculus with 2 samples.

Results

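Single CD4 T cells were split by the T cell receptor alpha variable (Trav) gene with the highest value measured in them. Cells whose highest Trav gene belonged to the Trav13 family were compared with cells whose highest Trav gene belonged to the Trav8 family. The members were chosen by measured values: each cell was given the Trav gene with the highest deposited value above 0. Trav13-2, Trav13-3 or Trav13d-1 put a cell in the Trav13 group, and Trav8-1, Trav8-2 or Trav8d-1 put it in the Trav8 group. This gave 149 of 178 cells, 112 in the Trav13 group and 37 in the Trav8 group. The other 29 cells entered neither group, and 18 of them had no Trav gene above 0.

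All cells were 2W1S-specific CD4 T cells. They came from the spleen and the peripheral lymph nodes of C57BL/6 animals that carried a recombinant Candida albicans making the 2W1S peptide (CA-2W1S colonization), a model antigen presented by the mouse class II molecule I-Ab. They were isolated singly on a Fluidigm C1 instrument, form a March and an April sample, and were amplified with SMART-Seq v4 chemistry, which reads whole transcripts without molecular identifiers. Both samples carried the same treatment, and no uncolonized group was analysed here. The 2 samples, named for March and April, served as replicates. The number of mice behind each is not given, so p-values rest on sample-to-sample spread, not on spread between mice. That spread may be technical, and limma drew its estimate for each gene toward a trend over all genes.

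A T cell receptor alpha chain is built by joining 1 variable (V) segment, here a Trav gene, to 1 joining (J) segment, a Traj gene, ahead of the constant gene Trac. The beta chain is assembled likewise, with Trbj segments ahead of the constant genes Trbc1 or Trbc2. The junction of V and J contributes to the surface that contacts peptide and class II molecule, and a T cell hands its rearranged genes to all its daughters. In C57BL/6 mice the alpha locus holds duplicated blocks, so that many Trav genes have close copies, some of them named with d or n.

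The V exons that defined the groups are shown because the value assigned to each gene rests on how well these sequences can be told apart. Sequences and positions come from GENCODE release M21 on the mm10 build, all on the plus strand of chromosome 14. The Trav13-2 exon lies at chr14:53635121-53635399, the Trav13d-1 exon at chr14:52851588-52851866, the B230359F08Rik exon at chr14:53795688-53795963 and the Trav8-2 exon at chr14:53738554-53738838. B230359F08Rik is shown because it turned out to be a V segment without a Trav name. In Trav13d-1 and B230359F08Rik, capitals mark bases that differ from Trav13-2 in a pairwise alignment.
Trav13-2: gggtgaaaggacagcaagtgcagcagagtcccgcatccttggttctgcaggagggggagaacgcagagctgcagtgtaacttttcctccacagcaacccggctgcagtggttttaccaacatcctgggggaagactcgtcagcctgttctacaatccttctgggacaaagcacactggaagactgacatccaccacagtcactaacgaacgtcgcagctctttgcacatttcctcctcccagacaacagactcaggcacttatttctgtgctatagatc
Trav13d-1: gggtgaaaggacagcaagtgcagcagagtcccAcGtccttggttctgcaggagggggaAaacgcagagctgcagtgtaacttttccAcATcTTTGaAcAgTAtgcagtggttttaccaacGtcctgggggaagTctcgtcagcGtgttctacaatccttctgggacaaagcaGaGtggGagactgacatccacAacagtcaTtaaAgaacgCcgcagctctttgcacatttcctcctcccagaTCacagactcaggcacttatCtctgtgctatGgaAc
B230359F08Rik: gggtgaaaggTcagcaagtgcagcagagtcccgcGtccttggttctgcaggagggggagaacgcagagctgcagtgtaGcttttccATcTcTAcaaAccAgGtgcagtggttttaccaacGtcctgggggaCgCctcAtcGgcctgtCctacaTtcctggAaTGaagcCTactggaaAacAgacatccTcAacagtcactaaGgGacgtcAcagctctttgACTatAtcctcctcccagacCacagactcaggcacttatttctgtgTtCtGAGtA
Trav8-2: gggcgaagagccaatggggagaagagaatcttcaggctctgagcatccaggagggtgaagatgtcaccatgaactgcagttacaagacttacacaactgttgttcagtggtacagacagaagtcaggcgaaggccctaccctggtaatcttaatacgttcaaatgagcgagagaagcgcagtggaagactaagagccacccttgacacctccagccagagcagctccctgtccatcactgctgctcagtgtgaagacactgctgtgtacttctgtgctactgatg

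Trav13d-1 differed from Trav13-2 at 29 of 279 aligned bases, an identity of 89.6%, and B230359F08Rik differed from Trav13-2 at 41 of 276, an identity of 85.1%. Closer copies existed that were not analysed here. Trav13d-1 was 99.6% identical to Trav13n-1, Trav13-2 was 96.4% identical to Trav13d-2 and to Trav13n-2, and the Trav13-3 exon was 100% identical to that of Trav13d-3. Trav8-2 was 94.7% identical to Trav8n-2, 86.3% to Trav8-1 and 69.2% to Trav13-2. The annotation types Trav8-2 and Trav13-3 as pseudogenes. Of 341 windows of 50 bases in the Trav13-2 transcript, 41 also occur in Trav13d-2, 17 in Trav13d-1 and 0 in B230359F08Rik, while 66.9% of those of Trav13d-1 occur in Trav13n-1. How reads were split among such copies was not tested, and values of single Trav genes are uncertain to that degree.

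The values that chose the groups are given as a description. Trav13d-1 was the top gene in 54 cells, Trav13-2 in 52 and Trav13-3 in 6. Trav8-2 was the top gene in 31 cells, and Trav8-1 and Trav8d-1 in 3 each. Since Trav8-2 and Trav13-3 are annotated as pseudogenes, the top gene need not encode the receptor in those 31 and 6 cells. Which V gene does was not tested. The top gene's log2 value ranged from 1.79 to 12.7 in the Trav13 group, with a median of 8.72, and from 0.23 to 13.3 in the Trav8 group, with a median of 9.54. The groups thus reached the same high levels, while the lowest values occurred in the Trav8 group of March. The pooled Trav8 median hides a gap between the samples: it was 6.70 in March and 10.99 in April. In the Trav13 group the median was 8.08 in March and 9.21 in April. The lowest Trav8-group value was 0.23 in March and 2.45 in April. Part of the March Trav8 group was therefore assigned on low values.

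Most cells lay far from the border between the groups, as the plot of the highest Trav13 value against the highest Trav8 value shows. The families were within 1 log2 unit of each other in 6 of 149 cells (4.03%, exact 95% interval 1.49% to 8.56%). The cell nearest the border, a Trav13-group cell, had 9.55 for Trav13 and 9.51 for Trav8. Of the Trav8-group cells nearest to it, 1 had 10.2 for Trav8 against 9.73 for Trav13, 1 had 3.29 against 2.99, and 3 had Trav8 values of 0.23, 0.42 and 0.95 with no Trav13 value above 0. Just outside that unit, a Trav13-group cell had 3.28 for Trav13 and 2.27 for Trav8. A value of the other family was not rare: a Trav8 gene was above 0 in 29 of 112 Trav13-group cells (25.9%, 18.1% to 35.0%), and a Trav13 gene in 17 of 37 Trav8-group cells (45.9%, 29.5% to 63.1%). Within the Trav13 group, Trav13-2 and Trav13d-1 were both above 0 in 76 of 112 cells, and in 65 of these 76 they differed by less than 1 log2 unit.

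**Figure D1:**
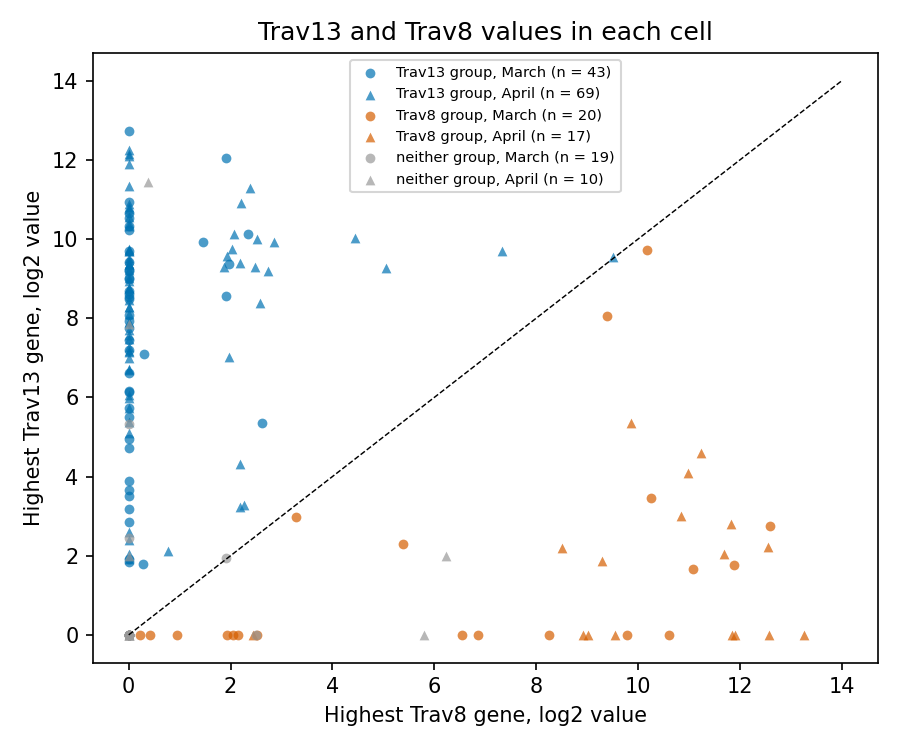
Each point is 1 of 178 cells, with the highest Trav8 log2 value on the x axis and the highest Trav13 log2 value on the y axis; colour gives the group, shape the sample, and the dashed line equal values. The 112 Trav13-group cells lie above the line and the 37 Trav8-group cells below it, by the rule, with 6 cells of both groups within 1 log2 unit of it.

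In March 43 of 82 cells were Trav13 (52.4%, 41.1% to 63.6%), and in April 69 of 96 were (71.9%, 61.8% to 80.6%). Trav8 cells numbered 20 in March (24.4%, 15.6% to 35.1%) and 17 in April (17.7%, 10.7% to 26.8%). The columns of each month carry 2 tags, Mar1 and Mar17 or Apr13 and Apr21. All 4 tagged sets held cells of both groups, with as few as 4 Trav8-group cells in Mar1. The groups were alike in the number of genes above 0, with a median of 5364 in Trav13 and 5285 in Trav8 cells in March, and 4938 and 4935 in April. Mitochondrially encoded genes took over 50% of the linear signal in 1 Trav8-group cell of March (93.9%) and in 0 Trav13-group cells. The files give no read counts, so the depth behind a value is unknown, and intervals on shares of cells cover counting error only.

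The label of the sort was checked in both groups. Cd3d and Cd3g, subunits of the T cell receptor complex, had a linear value (2 to the power of the deposited value, minus 1) of at least 1 in 100% of cells of both groups. Cd4 reached that level in 71.4% of Trav13 and 67.6% of Trav8 cells, Cd8a in 7.14% and 5.41%, and Cd8b1, the other CD8 chain, in 19.6% and 13.5%. Genes of other lineages were present in like shares: Ebf1, a B cell factor, reached a linear value of 1 in 88.4% and 86.5%, and Itgam, a myeloid integrin, in 42.0% and 32.4%. The log2 of the summed level of the 9 of 14 B cell markers in the table ranged from 1.37 to 12.2 in Trav13 cells and from 1.38 to 11.9 in Trav8 cells, and that of the 3 of 12 myeloid markers from 0 to 10.7 and from 0 to 11.2. Tcrg-C1, a gamma chain constant gene, was above 0 in 5 Trav13 cells and 0 Trav8 cells. The part of these values in the differences between groups was not tested. No doublet caller was run.

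A V segment without a Trav name was higher in the Trav13 group. B230359F08Rik is annotated as a T cell receptor V gene at chr14:53795357-53795963. Its mean log2 value was 2.03 in Trav13 and 0.30 in Trav8 cells of March, and 2.63 and 0.31 in April. Both Trav13 means lay above both Trav8 means. When receptor segments were left out by their symbols alone, it stayed among the 10812 tested genes and was the only gene called, with a difference of 2.02 ± 0.44 (SE, n = 2 samples) and an adjusted p of 0.0465 in limma. Since its gene type is that of a V segment, it was then left out with the other 62 segments, and it is not counted as an expression difference. Its values went with those of Trav13-2 (Spearman rho 0.786 over all cells), a gene that set the groups, so the call is no independent test.

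Within the Trav13 group, B230359F08Rik differed by top gene. It was above 0 in 40 of 52 cells with Trav13-2 on top (76.9%, 63.2% to 87.5%), in 20 of 54 with Trav13d-1 on top (37.0%, 24.3% to 51.3%), in 7 of 37 Trav8-group cells (18.9%, 7.96% to 35.2%) and in 3 of the 29 remaining cells. The order of the Trav13-2 and Trav13d-1 cells held in March, at 61.9% against 35.0%, and in April, at 87.1% against 38.2%. Over all 178 cells its Spearman rho with Trav13-2 was 0.786, with 0.746 in March and 0.801 in April, against 0.495 with Trav13d-1 and -0.157 with Trav8-2. These are descriptions over cells that share libraries, and the exons share the sequence shown above. B230359F08Rik exceeded the top Trav gene in 1 of 149 cells.

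**Figure D2:**
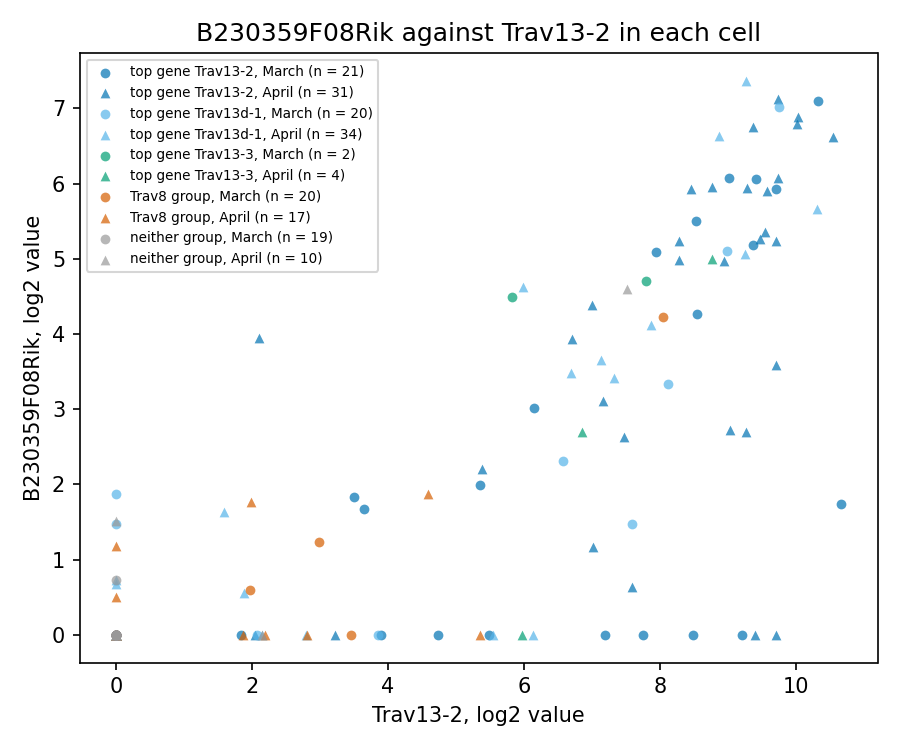
Each point is 1 of 178 cells, with the Trav13-2 log2 value on the x axis and the B230359F08Rik log2 value on the y axis; colour gives the top Trav gene or group and shape the sample. High B230359F08Rik values were found in cells with high Trav13-2 values (Spearman rho 0.786), and those cells include Trav13-2-top and Trav13d-1-top cells.

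The J segments are a readout of the receptor that the group rule did not use. The 39 Traj and 14 Trbj genes of the table were assigned by the same highest-value rule; Trbv genes were not analysed here. A Traj gene was above 0 in 110 of 112 Trav13 and 35 of 37 Trav8 cells, and a Trbj gene in 111 and 35. Several Traj genes could be above 0 in a cell: Traj18 was above 0 in 22 Trav8 cells and on top in 9. A value above 0 therefore does not show which segment the receptor uses. The 4 segments printed here were chosen after their values were seen, as the 4 whose share as the top segment differed most between the groups. Capitals mark the F-G-x-G or L-G-x-G codons (letters TTNGGNNNNGGN, searched on the plus strand), which close the junction in J segments; the letters occur in 46 of all 60 Traj and 11 of all 14 Trbj segments of the annotation. Traj18 lies at chr14:54200777-54200842, Traj23 at chr14:54196081-54196140, Trbj2-7 at chr6:41543810-41543856 and Trbj2-5 at chr6:41543453-41543501, all on the plus strand of mm10.
Traj18: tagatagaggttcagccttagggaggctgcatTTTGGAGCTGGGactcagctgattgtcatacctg
Traj23: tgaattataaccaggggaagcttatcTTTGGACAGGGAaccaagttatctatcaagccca
Trbj2-7: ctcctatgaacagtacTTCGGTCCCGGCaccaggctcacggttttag
Trbj2-5: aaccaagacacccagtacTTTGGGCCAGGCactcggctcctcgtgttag

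Traj18 was found more often in the Trav8 group. It was above 0 in 10 of 20 Trav8 and 8 of 43 Trav13 cells of March, and in 12 of 17 and 8 of 69 of April. Over both samples this was 59.5% of Trav8 cells (42.1% to 75.2%) against 14.3% of Trav13 cells (8.39% to 22.2%), and 24.1% of the cells in neither group. As the top Traj gene it was found in 9 of 37 Trav8 cells (24.3%, 11.8% to 41.2%) and in 1 of 112 Trav13 cells (0.893%, 0.0226% to 4.87%). Both the March and the April share of the Trav8 group lay above both shares of the Trav13 group. The segment was picked for its difference, and a lack of overlap does not set it apart. Above-0 shares of Traj17, Traj27, Trbj2-1, Trbj2-4 and Trbj2-7 did not overlap either, while those of Traj31, Trbj1-4 and Trbj2-5 did. For Traj17 they were 20% and 29.4% in Trav8 cells of March and April, against 9.30% and 10.1% in Trav13 cells. The count over all J segments was not made. Where it was above 0, its log2 value had a median of 11 in Trav8 cells (5.90 to 13.3) and of 8.82 in Trav13 cells (5.17 to 12.8), so the ranges overlapped.

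The 9 Trav8 cells with Traj18 on top all had Trav8-2 as their top Trav gene, came from 3 of the 4 tagged sets and carried 4 different top Trbj genes, with Trbj2-7 in 5 of them. Traj18 is best known as the segment that invariant natural killer T cells join to another V gene, Trav11, which was not analysed here. Of 12 genes listed for natural killer T or innate-like cells, 5 were in the table, and 2 of these, Mr1 and Cd1d1, encode presenting molecules. Traj18 was above 0 in 22 Trav8 cells, of which the 9 had it on top. Klrb1c, Klrk1 and Il18rap reached a linear value of 1 in 0 of the 22, which allows a share of up to 13.6%. Mr1 and Cd1d1 reached a linear value of 1 in 1 each. Among the 15 Trav8 cells with Traj18 at 0, Klrb1c did so in 1, Klrk1 in 2, Il18rap in 4, Mr1 in 0 and Cd1d1 in 2. Cd4 reached a linear value of 1 in 15 of the 22 and in 10 of the 15.

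Traj23 went the other way. It was above 0 in 13 of 43 Trav13 cells and 0 of 20 Trav8 cells of March, and in 15 of 69 and 1 of 17 of April. Over both samples the shares were 25% (17.3% to 34.1%) and 2.70% (0.0684% to 14.2%). It was the top Traj gene in 18 Trav13 cells (16.1%), more than any other Traj gene in that group, and in 1 Trav8 cell. Both Trav13 shares lay above both Trav8 shares, in a segment likewise picked for its difference. Such a lack of overlap was also found in the other J segments named above.

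In the beta chain, Trbj2-7 was the top Trbj gene in 17 of 37 Trav8 cells (45.9%, 29.5% to 63.1%) and in 21 of 112 Trav13 cells (18.8%, 12% to 27.2%). By sample this was 50% against 16.3% in March and 41.2% against 20.3% in April. Counted at any value above 0, the gap was smaller, 64.9% (47.5% to 79.8%) against 46.4% (37.0% to 56.1%), and these intervals overlapped. Trbj2-5 was the top gene in 3 Trav8 cells (8.11%, 1.70% to 21.9%) and 32 Trav13 cells (28.6%, 20.4% to 37.9%). At any value above 0, however, Trbj2-5 stood at 35.0% in Trav8 against 30.2% in Trav13 cells of March and at 29.4% against 52.2% in April, so that this count had opposite signs in the 2 samples. Trbj2-4 was on top in 14 Trav13 cells (12.5%) and in 0 of 37 Trav8 cells, which allows a share of up to 8.11% (3 cells) or, by the exact interval, 9.49%.

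**Figure D3:**
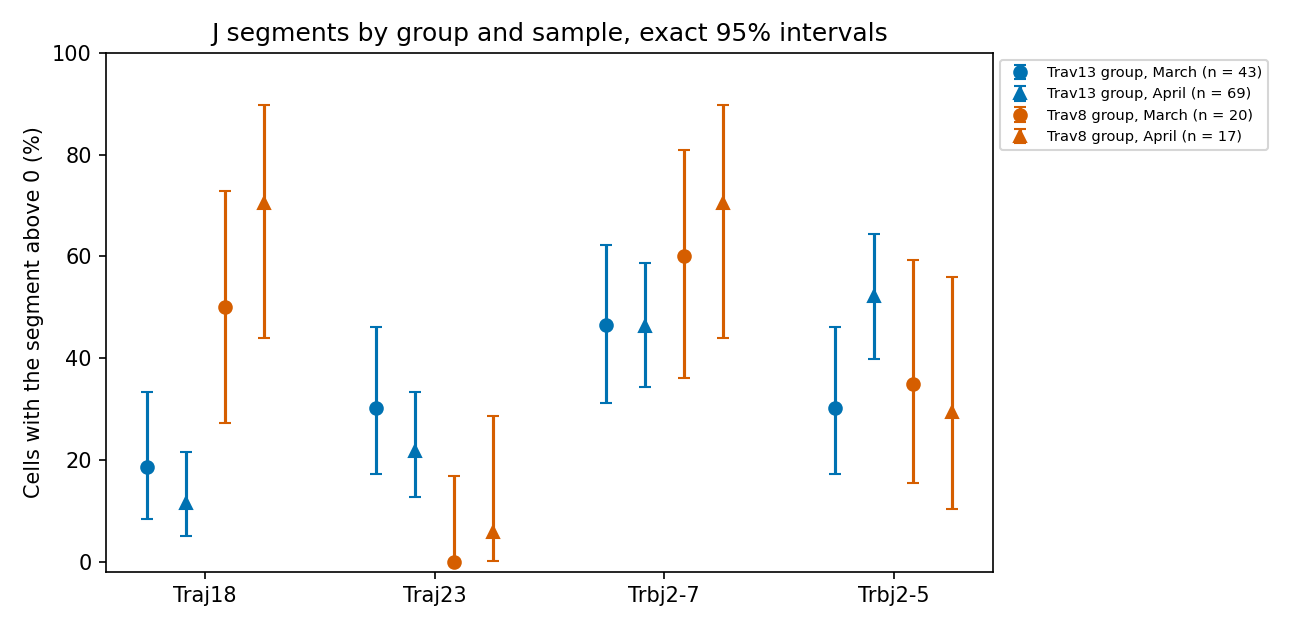
Share of cells with each J segment above 0 (y axis, percent), by segment (x axis), group (colour) and sample (shape); bars are exact 95% Clopper-Pearson intervals for counting error only. The March and April shares of Traj18 lie at 50% and 70.6% in the Trav8 group and at 18.6% and 11.6% in the Trav13 group, while Traj23 shows the reverse order and Trbj2-5 changes order between samples.

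The top Trbj gene belonged to the Trbj1 cluster in 20.5% of Trav13 cells and 21.6% of Trav8 cells (9.83% to 38.2%), with opposite signs in the samples, 23.3% and 15% in March and 18.8% and 29.4% in April. The shares of J segments are a description, and no test was made on them. Cells that share a Trav, a Traj and a Trbj gene may descend from 1 cell, and such cells are not independent. All 3 segments were read in 109 Trav13 cells, which made 91 combinations, and in 33 Trav8 cells, which made 26. The most frequent were Trav13d-1 with Traj23 and Trbj2-5, in 5 cells, and Trav8-2 with Traj18 and Trbj2-7, in 5 cells, each found in both samples. Combinations held by more than 1 cell covered 29 of the 109 Trav13 cells (26.6%) and 10 of the 33 Trav8 cells (30.3%). Trav13-2 and Trav13d-1 counted as different genes here, though they were often near ties. Traj23 with Trbj2-5, for example, was found in 5 cells under Trav13d-1 and in 3 under Trav13-2. Sharing among Trav13 cells would thus be higher if these genes were counted as 1. Junction sequences were not analysed here, so shared descent was not tested.

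Outside the receptor segments, no gene separated the groups past the threshold. Of 10811 genes, 0 (0%) had an adjusted p under 0.05 in limma and 763 (7.06%) an unadjusted p under 0.05, of which 575 (5.32% of all genes) had a positive and 188 (1.74%) a negative difference of Trav13 minus Trav8. The smallest adjusted p was 0.133. Differences here are between means of log2(value + 1), cells at 0 counted, so they cannot be read as folds. The test had 1 residual degree of freedom, and limma drew the variance of each gene toward a trend over all genes. Each SE therefore rests largely on other genes, not on the gene's own 2 samples. Of all genes tested, 30.7% were higher and 19.9% lower in Trav13 cells in both samples, and the median difference was 0.04. The share of positive differences among genes with an unadjusted p under 0.05 was 75.4%, against 65.2% after quantile normalization and 88.2% with linear values averaged before the log, a setting that moved the median of all genes to 0.30.

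The genes with the smallest p are given next, and none passed. Snrpe, a core protein of spliceosomal snRNPs, had mean log2 values of 6.17 in Trav13 and 4.49 in Trav8 cells of March, and 5.62 and 2.03 in April. Its difference was 2.63 ± 0.61 (SE, n = 2 samples; adjusted p 0.133 in limma). Exosc8, a subunit of the RNA exosome, stood at 3.80 and 1.95 in March and at 4.45 and 1.75 in April, a difference of 2.27 ± 0.55. For both genes the Trav13 means lay above the Trav8 means in each sample without overlap.

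Atox1, a copper chaperone, stood at 3.51 in Trav13 and 1.52 in Trav8 cells of March and at 3.38 and 1.27 in April, nearly the same gap in both samples (difference 2.05 ± 0.52). Irf1, a transcription factor of interferon responses, stood at 3.11 and 1.18 in March and at 3.63 and 1.67 in April (1.94 ± 0.52). Cd82, a tetraspanin, stood at 3.49 and 1.66 in March and at 4.65 and 2.18 in April (2.15 ± 0.55). The other 3 had differences of 1.75 for Dnaja2, an Hsp40 co-chaperone, 1.77 for Larp4b, an RNA-binding protein, and 2.13 for Twf1, an actin-binding twinfilin. Adjusted p-values of the 8 genes ranged from 0.133 to 0.193 in limma.

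Among negative differences, Herpud1, a component of endoplasmic reticulum-associated degradation, stood at 2.60 in Trav13 and 3.83 in Trav8 cells of March, and at 1.10 and 4.57 in April. Its difference was -2.35 ± 0.56 (adjusted p 0.133 in limma). Acap1, a GTPase-activating protein for Arf6 in endosomal recycling, stood at 2.11 and 3.58 in March and at 1.79 and 4.51 in April, a difference of -2.09 ± 0.55. Both genes were higher in the Trav8 means of each sample, with the larger gap in April.

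AW112010, a transcript induced by interferon, stood at 3.48 in Trav13 and 6.01 in Trav8 cells of March, and at 5.13 and 6.86 in April (-2.13 ± 0.62). Eya2, a transcriptional coactivator and phosphatase, stood at 0.25 and 1.77 in March and at 0.62 and 2.16 in April (-1.53 ± 0.43). The other 4 were Rnf146, a ubiquitin ligase (-1.58), N4bp2l1 (-1.49), 9930111J21Rik1, an interferon-inducible GTPase gene (-1.53), and Abcb1b, a drug efflux transporter (-1.19). Abcb1b was near 0 in Trav13 cells, with means of 0.17 and 0.06, against 0.58 and 2.02 in Trav8 cells. Adjusted p-values of these 8 ranged from 0.133 to 0.326 in limma. In all 16 genes, which were picked for a like sign and a small p, the sample means of the groups did not overlap; over all genes this held for 21% in the positive and 12.4% in the negative direction.

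**Figure D4:**
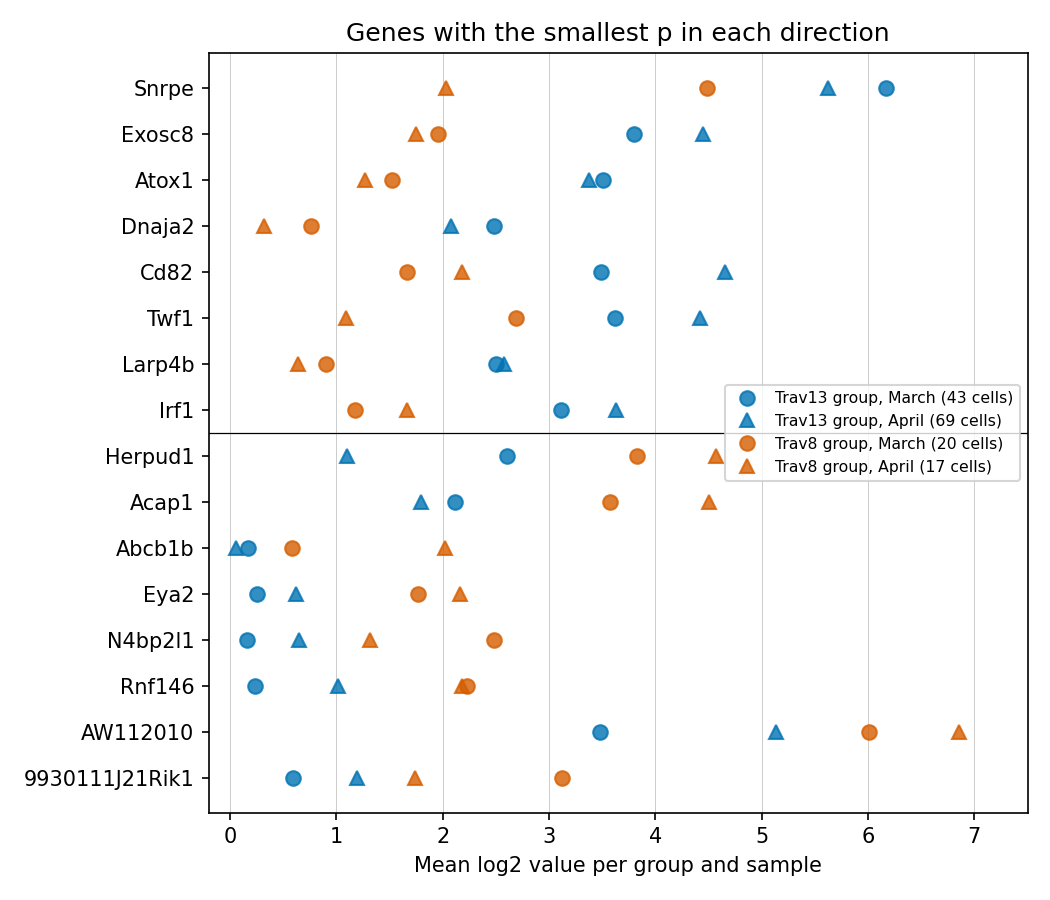
Mean log2 value (x axis) of the 8 genes with the smallest p in each direction (y axis), with 1 point per group (colour) and sample (shape); cell numbers are in the legend. Trav13 points lie to the right in the upper 8 genes and to the left in the lower 8, for example 6.17 and 5.62 against 4.49 and 2.03 for Snrpe, and none of the 16 passed an adjusted p of 0.05.

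A narrower definition of the groups gave calls. With cells restricted to those with Trav13-2 (52 cells) or Trav8-2 (31 cells) on top, 6 of 10615 genes passed an adjusted p of 0.05 in limma: Atox1 (3.10 ± 0.60, adjusted p 0.00145), Acap1 (-3.24 ± 0.63, 0.00145), Snrpe (3.40 ± 0.74, 0.0138), the translation factor gene Eif3l (2.58 ± 0.59, 0.0335), Exosc8 (2.84 ± 0.66, 0.0335) and Herpud1 (-2.78 ± 0.65, 0.0335). The 6 calls rest on the same variance shared over genes. In each other setting that left segments out by gene type the count was 0. Atox1, Acap1, Snrpe, Exosc8 and Herpud1 had the same direction in all settings run.

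The receptor complex itself was read next. Trac, the alpha constant gene, stood at 9.97 in Trav13 and 9.11 in Trav8 cells of March, and at 11.4 and 11.2 in April, a difference of 0.55 ± 0.41. In the cells tagged Mar1 its mean was 5.82 over only 4 Trav8 cells, against 10.3 over 15 Trav13 cells, and without those cells the difference in Trac was 0.05. Trbc1, a beta constant gene, stood at 4.59 and 4.93 in March and at 5.24 and 8.55 in April (-1.83 ± 0.61, adjusted p 0.398 in limma), and its difference was 0.10 with linear values averaged. Trbc1 and Trbc2 are near-identical, so the split of reads between them is uncertain, and Trbc1 exceeded Trbc2 in 12.5% of Trav13 and 10.8% of Trav8 cells.

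Cd3e differed by 0.34 and Cd2, an adhesion receptor, by 1.15 ± 0.60, positive in both samples. Cd247, the zeta chain, stood at 3.90 in Trav13 and 6.57 in Trav8 cells of March but at 4.35 and 4.33 in April, so its gap came from 1 sample. Over the 9 tested genes of the receptor complex, 4 were higher and 1 lower in both samples, with a median difference of 0.15, which turned to -0.18 after quantile normalization. Among 22 proximal signalling genes, 8 were higher and 0 lower in both samples (median 0.27), led by Prkcq, a kinase downstream of CD28 and the receptor (1.13 ± 0.53), and Ptpn6, a phosphatase that dampens receptor signals (1.13 ± 0.56). None of these genes passed. The median over all genes was 0.04.

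Genes induced by receptor engagement were read next. Cd69, an early activation marker, stood at 4.60 in Trav13 and 3.45 in Trav8 cells of March, and at 4.87 and 3.95 in April (1.03 ± 0.60). Nr4a1, induced by receptor signals, differed by -0.09 ± 0.30, and its sign changed in 5 of the other settings. Of the 18 tested genes in the list of receptor strength and early response, 5 were higher, 3 lower and 10 of opposite sign in the 2 samples, with a median of 0.02. That median was 0.81 with linear values averaged and -0.14 after quantile normalization, so its direction rests on the scaling. Dusp2, an early phosphatase (1.77 in Trav13 and 0.24 in Trav8 cells of March, 1.70 and 1.22 in April), Egr2 (0.62 ± 0.31) and Junb (1.04 ± 0.57), both transcription factors, had the smallest p in that list, and none passed.

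State and lineage genes were compared next. Pdcd1, the inhibitory receptor PD-1, stood at 0.98 in Trav13 and 0.25 in Trav8 cells of March, and at 1.47 and 0.31 in April (0.94 ± 0.34, unadjusted p 0.00605, adjusted p 0.459 in limma). Ikzf2, which encodes Helios, stood at 2.04 and 0.88 in March and at 1.46 and 0.29 in April (1.17 ± 0.42, adjusted p 0.458). For both genes the Trav13 means lay above the Trav8 means without overlap.

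Ctla4 (1.03), Icos (1.04) and Maf (1.03), which mark activated and follicular helper cells, had positive differences in both samples, with Maf at 1.76 in March and 0.31 in April. Bcl6, the follicular helper regulator, differed by 0.21 and Foxp3, the regulatory T cell factor, by 0.17. Cd44, raised on antigen-experienced cells, differed by 0.95 ± 0.57, Cd4 by 0.48 and Tcf7, a factor of naive and stem-like cells, by -0.20. Of 29 fixed receptor, state and lineage genes tested, 12 were higher and 3 lower in both samples, and 14 had opposite signs, among them Klf2, Il7r, Ccr7, S1pr1, Cxcr5, Gata3 and Il2ra. Il7r, the interleukin-7 receptor chain, stood at 3.37 in Trav13 and 2.28 in Trav8 cells of March but at 2.69 and 5.45 in April. None of the 29 passed (smallest adjusted p 0.398 in limma).

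Among gene lists, the activated or memory list had the largest median of the main setting, at 0.74 (0.30 in March and 1.04 in April), with 8 of 16 tested members higher and 1 lower in both samples. With linear values averaged it stood at 0.85, under the Th17 (2.34), Th2 (1.33), regulatory T cell (1.21), exhaustion (1.01) and proliferation (0.97) lists. Its smallest p belonged to Lgals1, which encodes galectin-1. Lgals1 stood at 4.54 in Trav13 and 2.52 in Trav8 cells of March, and at 6.13 and 4.10 in April, a difference of 2.03 ± 0.61 (adjusted p 0.326 in limma). Itgb1, an integrin beta chain (1.20 ± 0.47), and S100a11, a calcium-binding protein (1.22 ± 0.62), followed. The central memory or naive list stood on the other side, at -0.15, with 3 members higher and 4 lower of 14. Its smallest p belonged to Actn1, an alpha-actinin (-1.43 ± 0.55), Ccr9, a gut-homing receptor (-0.49 ± 0.22), and Dapl1 (-0.66 ± 0.42).

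The follicular helper list had 10 of 18 members higher and 2 lower in both samples (median 0.26), with Pdcd1 and Slamf6, a homophilic receptor (1.15 ± 0.54), among its leading members. The exhaustion list, which shares Pdcd1, had 9 of 17 higher and 2 lower (median 0.21). In the interferon list 11 of 31 were higher and 6 lower, with medians of -0.27 for March and 0.40 for April. Irf1, Psmb8, an immunoproteasome subunit (1.63 ± 0.62), and Zbp1, a nucleic acid sensor (0.82 ± 0.29), had positive differences. Il4, the cytokine of the Th2 list, had a difference of 0.77 in March and 0.81 in April (0.79 ± 0.28). It rests on few cells: Il4 reached a linear value of 1 in 18 of 112 Trav13 cells (16.1%, 9.81% to 24.2%). In Trav8 cells it did so in 3 of 37 (8.11%, 1.70% to 21.9%), and these intervals overlapped. No member of any list passed.

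Housekeeping programs had positive medians too. The ribosomal protein list had 13 of 23 members higher and 0 lower in both samples (median 0.43), with Rps24 at 0.97 ± 0.48 and Rpl6 at 1.12 ± 0.55; with linear values averaged its median was 0.12, below that of all genes in that setting. The oxidative phosphorylation list had 8 of 21 higher and 1 lower (median 0.45). Its members with the smallest p had opposite signs, Ndufb5 of complex I at 1.64 ± 0.52 and Cox5b of complex IV at 1.42 ± 0.60, against Sdha of complex II at -1.69 ± 0.59. The proliferation list had 2 higher and 4 lower of 24, with -0.22 in March and 0.56 in April. Of 23 lists with a tested member, 21 had a positive median in the main setting.

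**Figure D5:**
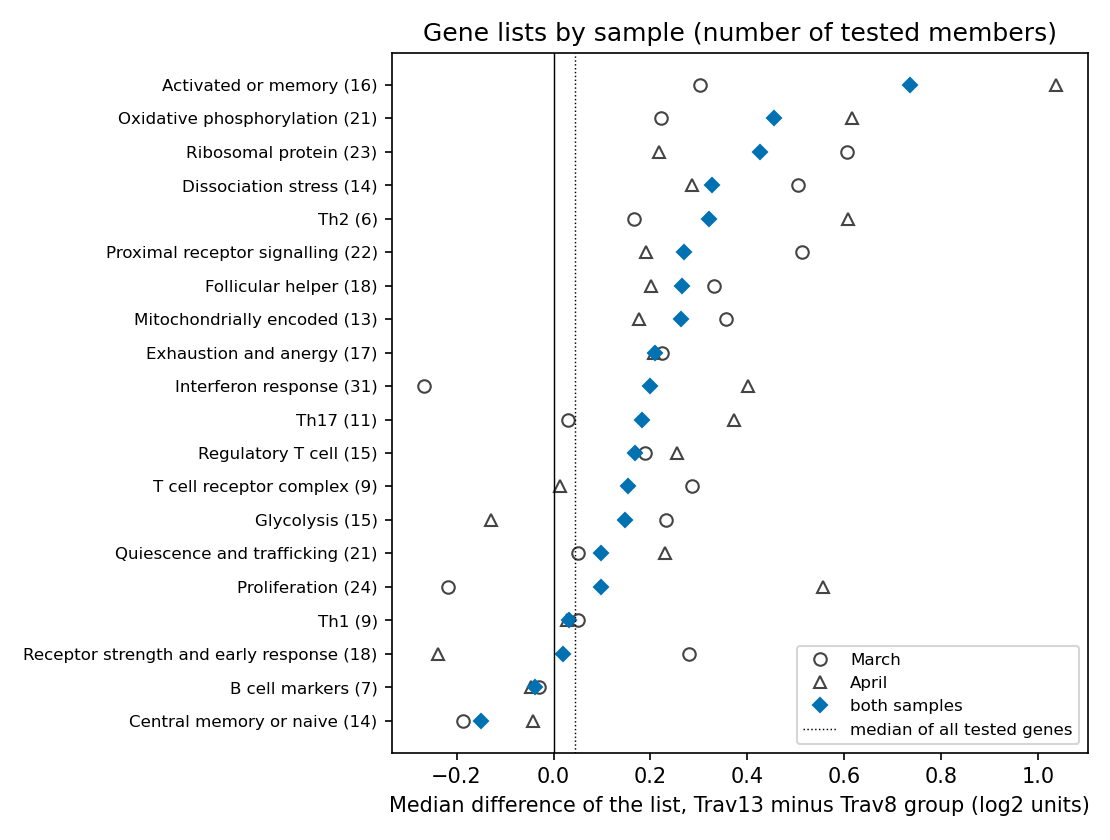
Median difference of each gene list with at least 5 tested members (y axis, number of members in brackets), Trav13 minus Trav8 group in log2 units (x axis), for March, April and both samples. Over both samples, the activated or memory list lies farthest to the right at 0.74 and the central memory or naive list farthest to the left at -0.15, while single months reach farther left, such as the interferon list at -0.27 in March; the dotted line is the median of all tested genes, 0.04.

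Markers of other cell types were read in the same fit. Of 7 tested B cell markers, 0 were higher and 2 lower in both samples, with a median of -0.04, which was 0.67 with linear values averaged. Ighm, the immunoglobulin mu constant gene, stood at 2.53 in Trav13 and 3.74 in Trav8 cells of March, and at 3.11 and 4.41 in April (-1.25 ± 0.58, adjusted p 0.617 in limma). All 3 tested myeloid markers had positive differences in both samples, from 0.29 for Csf1r, a growth factor receptor, to 1.01 ± 0.49 for Cst3, cystatin C. None passed, and the part of these genes in the other differences was not tested.

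Finally, Trav13-group cells were set against each other by their top gene: 52 with Trav13-2 and 54 with Trav13d-1 on top. This comparison was added after the data had been seen. Both genes were above 0 in 76 of 112 Trav13-group cells, and in 65 of these 76 they differed by less than 1 log2 unit. The top gene was thus often a near tie, and the split does not define separate kinds of cells. Of 10792 genes, 0 (0%) passed in limma and 680 (6.3%) had an unadjusted p under 0.05, of which 212 (1.96%) had a positive and 468 (4.34%) a negative difference of Trav13-2 minus Trav13d-1. The smallest adjusted p was 0.750. Of all these genes, 20.2% were higher and 31% lower in Trav13-2 cells in both samples. Trac stood at 10.6 in Trav13-2 and 9.08 in Trav13d-1 cells of March, and at 11.9 and 10.9 in April, a difference of 1.26 ± 0.34.

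Dusp10, a phosphatase of stress kinases, stood at 2.28 in Trav13-2 and 0.18 in Trav13d-1 cells of March, and at 1.86 and 0.58 in April (1.70 ± 0.44). On the other side were Fstl1, a secreted follistatin-like protein (-2.16 ± 0.52), Rasa3, a GTPase-activating protein for Ras and Rap1 (-1.95 ± 0.48), and Glrx, glutaredoxin (-2.06 ± 0.55). Of the genes that led the comparison of families, Acap1 stood at -1.76 ± 0.48 and Snrpe at 1.68 ± 0.54, with the same sign in both samples. Neither passed, and the gaps between the families were -2.09 and 2.63 for the same genes.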

How the data were processed

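The deposited table gave 12432 genes in 178 single cells. Its values were log2 values as deposited by the authors; their form, log2(x + 1) of values that sum to 892206 to 979888 per cell, was read from the values themselves, and the build mm10 comes from the submitters' processing notes. The aligner is not given in the sources used here, nor is the quantification tool. Symbols were matched for 12163 genes with GENCODE M21, and 269 stayed unmatched. Mean log2 values per sample and group (4 libraries) were fitted with limma 3.58.1 (R 4.3.3, trend, sample as block, Benjamini-Hochberg at 0.05, two-sided) over genes above 0 in at least 10% of the cells of both groups together. The 63 receptor V and J segments, by GENCODE gene type, were left out of the tests.

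Intervals on shares of cells are exact, by the 95% Clopper-Pearson method (SciPy 1.17.1), and the limit for a count of 0 is 3 cells of the total. V exons were aligned with Biopython 1.88. Named genes were those called or, filled to 8 per direction, those with the smallest p and the same sign in both samples, plus 30 fixed genes and up to 3 members of each of 24 lists. The members and lists were chosen with earlier results of these data known. The sample is the block because both groups come from the same samples. Alternatives changed the block, gene filter, scale of averaging, pseudocount (10), quantile normalization, group rule, cells and samples used. Segment exclusion by symbol and the comparison within the Trav13 group were chosen after seeing the data. The fit was tested on simulated data.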

Additional observations from a re-analysis of the deposited data

How the results depend on the processing

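The count of 0 genes called held under each setting with a test except 2: it was 6 with Trav13-2 and Trav8-2 cells only and 1 with segments left out by symbol. With no replicate block the count was 0 and 517 genes had an unadjusted p under 0.05, the lowest of a range up to 884 with a pseudocount of 10. Within the Trav13 group all settings gave 0, and unadjusted counts fell to 417 with no replicate block and 425 with genes detected in 25% of cells. Of 59 genes followed over 937 values between the families, 13 values in 8 genes turned in sign and 5 genes passed the threshold under an alternative. Trac was -0.17 and Tcf7 0.065 with Trav13d-1 in place of the whole Trav13 group. With linear averaging Trbc1 was 0.10 and Nr4a1 0.85; outside that count, Herpud1 within the Trav13 group was 0.81. With Trav13-2 and Trav8-2 cells only, Trbc2 was 0.022, Nr4a1 0.16 and Dapl1 0.30. Nr4a1 was also 0.0069 with a pseudocount of 10, 0.076 with top Trav genes at linear 1 or more and 0.048 with a margin of 1 log2 unit. Leaving out 1 sample at a time gave a value with no test: Trbc2 ranged from -0.91 to 0.39, Cd247 from -2.66 to 0.014, Il7r from -2.76 to 1.09, and Trav8 minus Trav13 for Trbj2-5 above 0 from -22.8 to 4.77 percentage points. Of 300 values of 20 list medians, 64 moved by more than the spread between samples. The cause of these shifts was not tested. With 2 samples and 37 Trav8 cells, small differences were not detectable.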
